A study of Homo sapiens with 6 samples.

Results

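Messenger RNA of 9 genes that store, take up, release or sense iron was described in SNU216, a human cell line established from gastric cancer. These were the ferritin subunit genes FTH1 and FTL, the ferritin cargo receptor gene NCOA4, the transferrin receptor gene TFRC, the iron transporter genes SLC11A2 and SLC40A1, the ferrireductase gene STEAP3, and the genes of the iron regulatory proteins, IREB2 and ACO1. The genes were chosen by their role in iron handling with the siOXTR and siControl values of these libraries already known, so the contrast between the groups is given for them as a description. No p-value is printed for them, and where the fit over all genes placed them past its threshold, that is stated without being read as evidence. Of the 9 genes, 8 were among the 17318 genes listed in each library, and all 8 reached 1 FPKM in every library. SLC40A1 was not analysed here. The tested cells were transfected for 48 h with an siRNA against OXTR, the oxytocin receptor gene (siOXTR, 3 libraries), and the others with a control siRNA (siControl, 3 libraries), all grown under the same conditions. The line is a single established culture, and whether replicates of a group were transfected separately is not stated in the labels, so SDs and p-values measure a spread that may be technical only. The title of the series concerns the interplay of the oxytocin receptor with YAP, a transcriptional co-activator of the Hippo pathway.

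Iron enters most cells as transferrin bound to the transferrin receptor, is reduced by STEAP3 in the endosome and leaves it through SLC11A2 (DMT1). Iron that is not used is oxidised and held in ferritin, a hollow shell of heavy (FTH1) and light (FTL) subunits, and NCOA4 carries ferritin to the lysosome when iron is to be released. The iron regulatory proteins, encoded by ACO1 and IREB2, bind a stem-loop called the iron responsive element when iron is scarce. Bound in a 5′ untranslated region (UTR) the element holds back translation, as in the ferritin mRNAs, and bound in the 3′ UTR of TFRC it protects the mRNA from decay. Ferritin transcription also responds to NRF2 (NFE2L2), the activator of antioxidant genes.

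The elements themselves are shown because they are the sequence feature by which these mRNAs are known to be read. The pattern searched was a CAGTGN loop with N being A, C or T, an upper stem of 5 pairs in which G-T pairs were allowed, and an unpaired C on the 5′ side below it, in transcripts of GENCODE release 29 on GRCh38. Sequences run 5′ to 3′ along the mRNA, written with T, and capitals mark the loop. The ferritin windows lay in the 5′ UTR, at chr11:61967573-61967602 on the minus strand for FTH1 and chr19:48965335-48965364 on the plus strand for FTL. The TFRC windows lay in the 3′ UTR on the minus strand, at chr3:196050978-196051007, chr3:196050574-196050603, chr3:196050509-196050538 and chr3:196050462-196050491, in the order printed. Their letters give that order only and are not established names of the elements. An element that departs from the pattern would be missed, so the windows need not be all the elements of TFRC.
FTH1 5′ UTR: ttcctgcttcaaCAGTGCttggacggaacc
FTL 5′ UTR: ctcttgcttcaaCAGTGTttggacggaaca
TFRC 3′ UTR, window A: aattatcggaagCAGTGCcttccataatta
TFRC 3′ UTR, window B: cattatcgggagCAGTGTcttccataatgt
TFRC 3′ UTR, window C: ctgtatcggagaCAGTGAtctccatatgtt
TFRC 3′ UTR, window D: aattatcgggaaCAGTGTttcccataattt
The unpaired C stands 6 bases before the loop in each window. Below it, 4 of 6 positions paired in each ferritin window and 5 or 6 of 6 in the TFRC windows. This count allowed no further bulge or internal loop, so it does not compare the strength of the stems. No window of this pattern was found in SLC11A2, IREB2, ACO1, NCOA4 or STEAP3, which says only that these letters are not in the transcripts searched. A UTR window was present in 0.836% of the 11481 tested genes that have a coding transcript. Among the 93 such genes outside the iron handling set, 31 were higher and 15 lower in siOXTR libraries past the threshold used here, 47 did not pass, and the median log2 fold change was 0.09. These are 33.3% higher and 16.1% lower, beside 42.2% higher and 17.6% lower of all tested genes, whose median was 0.13.

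OXTR, the target of the siRNA, was at 4.76, 4.65 and 5.34 FPKM in siOXTR libraries, against 39.37, 38.87 and 39.02 FPKM in siControl libraries. Its log2 fold change of -2.76 (adjusted p = 6.39e-11, limma with Benjamini-Hochberg adjustment over 11550 tested genes) was the lowest of all tested genes. FPKM is a fragment count divided by transcript length and by the total of mapped fragments, and fold changes are differences of mean log2(FPKM + 1), siOXTR minus siControl, which understates the change of genes with low values. Sequencing depth is unknown. Summed FPKM ran from 446246 to 459595 in siOXTR libraries and from 417829 to 434167 in siControl libraries, and the median tested gene was 0.13 higher in siOXTR libraries on the log2 scale. TMM scaling, which estimates library factors from the bulk of genes, lowered that median by 0.115, so list counts and named genes are also given after this scaling where it changes them. In bulk RNA, fewer cells with a transcript and less of it per cell cannot be told apart.

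All 8 iron handling genes had groups that did not overlap, with 5 higher and 3 lower in siOXTR libraries. The fit over all genes placed all 8 past its threshold (adjusted p under 0.05). The same fit called 59.8% of all tested genes, 42.2% higher and 17.6% lower, and the groups did not overlap for 64.4%. The storage genes FTH1 and FTL stood highest and the uptake gene TFRC lowest of the 8 by log2 fold change, while NCOA4, ACO1 and IREB2 moved by less than 0.3. With TMM scaling 3 were called higher and 3 lower, and IREB2 and ACO1 were no longer called. That scaling called 19.3% of all tested genes higher and 24.5% lower.

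FTH1 (Entrez gene 2495, chr11:61959718-61967660, minus strand, GRCh38), the ferroxidase subunit of ferritin, was measured at 8544.78, 9160.10 and 8693.62 FPKM in siOXTR libraries, against 4914.07, 5985.12 and 5928.82 FPKM in siControl libraries. The lowest siOXTR library lay above the highest siControl library, and siControl replicate 1 was the lowest of the 6. Mean FTH1 was 8799.5 ± 321 FPKM in siOXTR cells and 5609.3 ± 603 FPKM in siControl cells (SD, n = 3 each), 1.57-fold higher, with a log2 fold change of 0.65 (SE 0.079). FTH1 had the highest FPKM of all genes in each of the 6 libraries. Its level was 2.65, 2.61 and 2.43 times that of the next gene in siOXTR libraries, against 1.41, 1.67 and 1.72 times in siControl libraries. The next gene was KRT8 or TMSB4X in siOXTR libraries and ACTB or TMSB4X in siControl libraries.

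FTL (Entrez gene 2512, chr19:48965301-48966878, plus strand), the light subunit that aids mineralisation of the iron core, was at 1653.54, 1677.02 and 1559.22 FPKM in siOXTR libraries, against 957.05, 1060.53 and 966.10 FPKM in siControl libraries. Every siOXTR library was above every siControl library. The means were 1629.9 ± 62.3 FPKM in siOXTR cells and 995 ± 57.3 FPKM in siControl cells (SD, n = 3 each), 1.64-fold higher, with a log2 fold change of 0.71 (SE 0.061). By FPKM, FTL ranked 15th, 17th and 19th among all genes in the siOXTR libraries and 36th, 28th and 36th in the siControl libraries. FTH1 and FTL together made up 2.30% ± 0.0572 of summed FPKM in siOXTR libraries and 1.54% ± 0.121 in siControl libraries (SD, n = 3 each). Among all 11550 tested genes, 80 had a higher log2 fold change than FTH1 and 45 a higher one than FTL.

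Both ferritin genes have pseudogene copies elsewhere in the genome, 25 for FTH1 and 16 for FTL in GENCODE release 29, which were not analysed here. How reads shared with the copies were assigned is not given in the sources used here, so the absolute ferritin levels are uncertain. FTH1 also overlaps BEST1, a chloride channel gene, in the annotation, and whether reads were counted by strand is not given in the sources used here. BEST1 was at 7.09, 7.89 and 7.51 FPKM in siOXTR libraries, against 4.28, 4.04 and 4.59 FPKM in siControl libraries, with a log2 fold change of 0.68 (adjusted p = 5.2e-06, limma).

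NCOA4 (Entrez gene 8031, chr10:46005088-46030714, minus strand), the receptor that delivers ferritin to autophagosomes, was at 34.71, 34.39 and 36.12 FPKM in siOXTR libraries, against 28.27, 27.58 and 30.44 FPKM in siControl libraries. The groups did not overlap, and the means were 35.1 ± 0.920 FPKM in siOXTR cells and 28.8 ± 1.49 FPKM in siControl cells (SD, n = 3 each). The log2 fold change was 0.28 (SE 0.056), and 0.15 with TMM scaling.

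**Figure D1:**
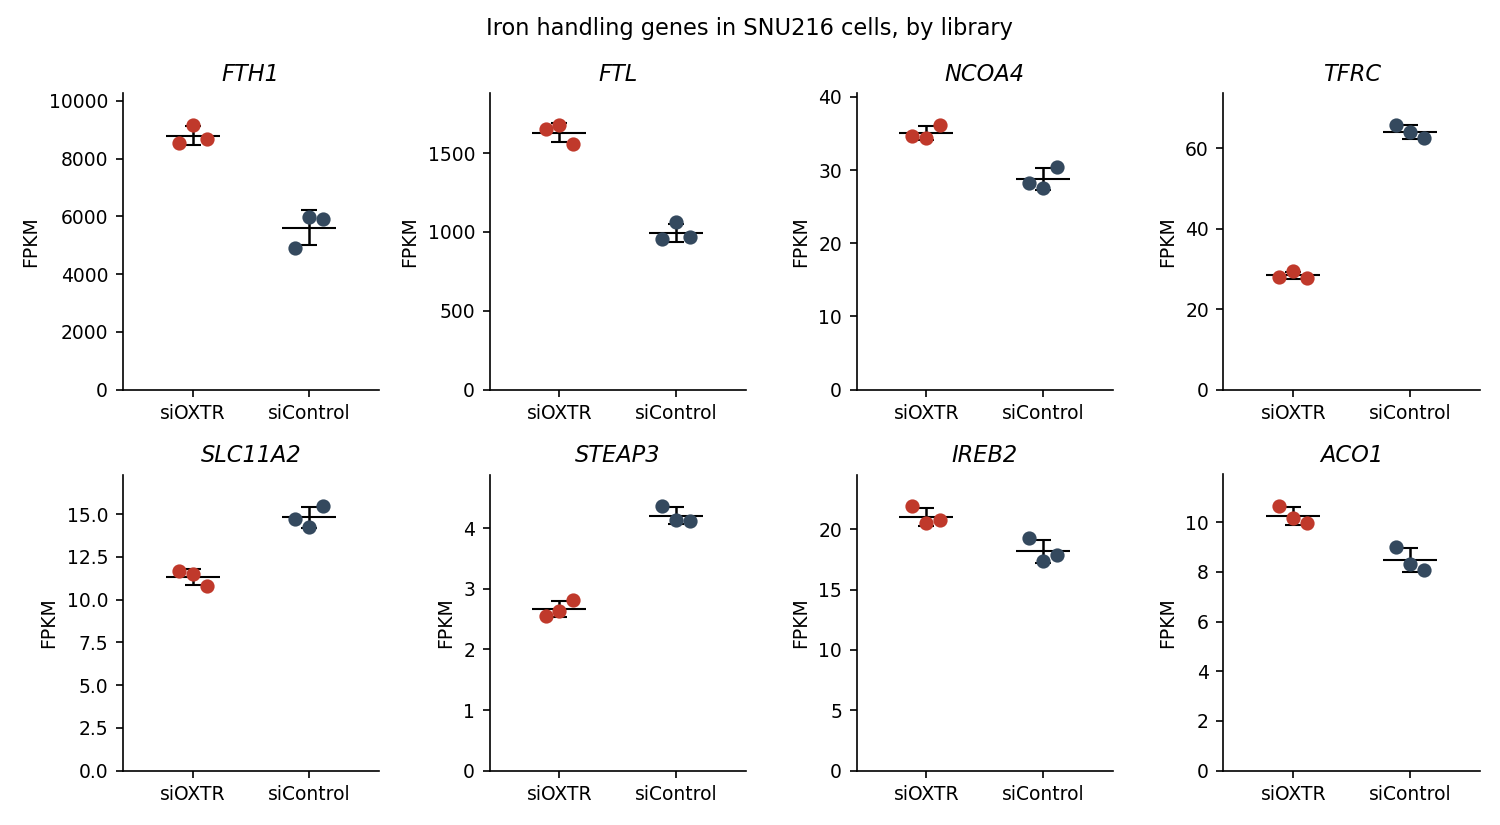
FPKM of the 8 iron handling genes in each library, siOXTR in red and siControl in dark blue, with replicates 1 to 3 from left to right, the mean as a long bar and the SD as whiskers (n = 3 each). Each panel has its own linear axis from 0, and in all 8 panels the points of the groups do not overlap, with siOXTR above siControl for FTH1, FTL, NCOA4, IREB2 and ACO1 and below it for TFRC, SLC11A2 and STEAP3.

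TFRC (Entrez gene 7037, chr3:196027183-196082189, minus strand), the receptor for iron-loaded transferrin, was at 28.07, 29.42 and 27.88 FPKM in siOXTR libraries, against 65.78, 64.03 and 62.50 FPKM in siControl libraries. The siOXTR libraries lay close together and far below all siControl libraries. The means were 28.5 ± 0.840 FPKM in siOXTR cells and 64.1 ± 1.64 FPKM in siControl cells (SD, n = 3 each), a ratio of 0.444, with a log2 fold change of -1.14 (SE 0.051). TFRC ranked 3147th, 2990th and 3147th by FPKM in the siOXTR libraries and 1147th, 1247th and 1282nd in the siControl libraries. Of all tested genes, 1.49% had a log2 fold change at or below that of TFRC.

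SLC11A2 (Entrez gene 4891, chr12:50979401-51028566, minus strand), the ferrous iron transporter of the endosome and the cell surface, was at 11.66, 11.50 and 10.79 FPKM in siOXTR libraries, against 14.72, 14.25 and 15.46 FPKM in siControl libraries. The groups did not overlap. The means were 11.3 ± 0.463 FPKM in siOXTR cells and 14.8 ± 0.610 FPKM in siControl cells (SD, n = 3 each), with a log2 fold change of -0.36 (SE 0.060). Some SLC11A2 transcripts are known to carry an iron responsive element in the 3′ UTR and others to lack it, and the deposited value is 1 per gene, so the forms could not be separated.

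STEAP3 (Entrez gene 55240, chr2:119223831-119265652, plus strand), the endosomal ferrireductase, had the lowest level of the 8. It was at 2.55, 2.63 and 2.82 FPKM in siOXTR libraries, against 4.36, 4.13 and 4.12 FPKM in siControl libraries. No siOXTR library reached the siControl range. The means were 2.67 ± 0.139 FPKM in siOXTR cells and 4.203 ± 0.136 FPKM in siControl cells (SD, n = 3 each), a ratio of 0.634, with a log2 fold change of -0.51 (SE 0.068). An antisense gene, STEAP3-AS1, overlaps it in the annotation and was not analysed here.

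IREB2 (Entrez gene 3658, chr15:78437431-78501456, plus strand) encodes iron regulatory protein 2, whose level is set mainly by iron-dependent degradation of the protein. Its mRNA was at 21.91, 20.52 and 20.74 FPKM in siOXTR libraries, against 19.26, 17.35 and 17.87 FPKM in siControl libraries. The groups did not overlap, and the lowest siOXTR library and the highest siControl library were closer to each other than the lowest and highest siControl libraries were. ACO1 (Entrez gene 48, chr9:32384603-32454769, plus strand) encodes iron regulatory protein 1, which acts as a cytosolic aconitase when it carries an iron-sulphur cluster. It was at 10.64, 10.15 and 9.96 FPKM in siOXTR libraries, against 9.01, 8.33 and 8.06 FPKM in siControl libraries. Here too every siOXTR library was above every siControl library. The log2 fold changes were 0.20 (SE 0.059) for IREB2 and 0.25 (SE 0.063) for ACO1, against a median of 0.13 over all tested genes. With TMM scaling both lost their call, at log2 fold changes of 0.082 for IREB2 and 0.13 for ACO1.

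**Figure D2:**
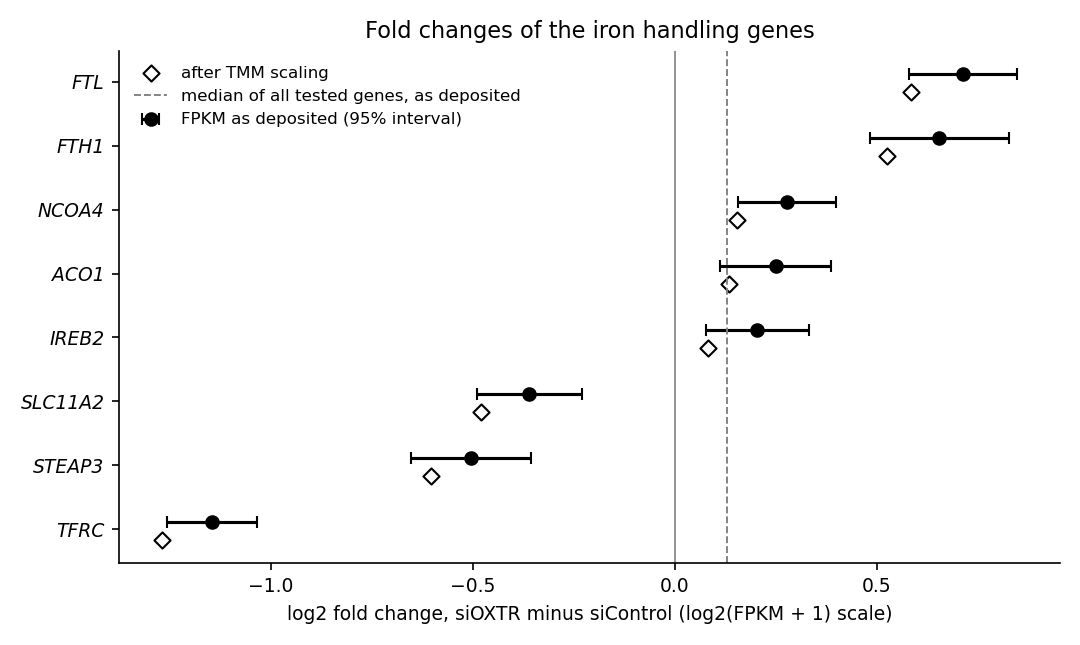
Log2 fold change of each iron handling gene, siOXTR minus siControl on the log2(FPKM + 1) scale, as filled points with 95% intervals from the limma fit (n = 3 each), and after TMM scaling as open diamonds. The grey dashed line is the median of all tested genes at 0.13; FTL and FTH1 lie at 0.71 and 0.65, TFRC at -1.14, and TMM scaling moves every gene to the left without a change of sign.

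In siOXTR cells the mean FPKM, which is scaled by transcript length, ran from FTH1 and FTL through NCOA4, TFRC, IREB2, SLC11A2 and ACO1 down to STEAP3. In siControl cells the order was the same except that TFRC stood above NCOA4. No neighbours in either order overlapped in their library values. The closest neighbours were SLC11A2 and ACO1 in siOXTR cells, where the lowest SLC11A2 value was 10.79 FPKM and the highest ACO1 value was 10.64 FPKM.

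Ratios within a library do not depend on scaling between libraries. FTH1 stood at 304.4, 311.4 and 311.8 times TFRC by FPKM in siOXTR libraries, against 74.7, 93.5 and 94.9 times in siControl libraries. This storage-to-uptake ratio had to separate the groups, since FTH1 was higher and TFRC lower without overlap, so the separation is no further result. Its mean was 309.2 ± 4.15 in siOXTR cells and 87.7 ± 11.3 in siControl cells (SD, n = 3 each). FTL, also higher without overlap, stood at 58.9, 57.0 and 55.9 times TFRC in siOXTR libraries, against 14.6, 16.6 and 15.5 times in siControl libraries. The subunit ratio FTH1 to FTL, of genes that were both higher, overlapped between the groups. It was 5.17, 5.46 and 5.58 in siOXTR libraries and 5.14, 5.64 and 6.14 in siControl libraries. Its mean was 5.40 ± 0.211 in siOXTR cells and 5.64 ± 0.501 in siControl cells (SD, n = 3 each). The ratio of IREB2 to ACO1 was 2.05 ± 0.0306 in siOXTR cells and 2.15 ± 0.0675 in siControl cells (SD, n = 3 each), and the highest siOXTR value (2.082) lay just under the lowest siControl value (2.083). TFRC to NCOA4 was below 1 in all siOXTR libraries, at 0.809, 0.856 and 0.772, and above 1 in all siControl libraries, at 2.33, 2.32 and 2.05. It too had to separate the groups, since TFRC was lower and NCOA4 higher without overlap. The ratios FTL to TFRC and TFRC to NCOA4 were added to those planned.

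The 3 genes that were lower in siOXTR cells, TFRC, SLC11A2 and STEAP3, encode membrane proteins, and the 5 that were higher encode proteins of the cytosol. The tested genes were therefore sorted by a prediction from protein hydropathy, described in the methods and chosen after the values had been seen. Of 3541 tested genes with a predicted signal or membrane segment, 43.8% were lower and 22.6% higher in siOXTR libraries, with a median log2 fold change of -0.10. Of 7928 genes with no predicted segment, 6.05% were lower and 50.9% higher, with a median of 0.17. All 3 uptake genes fell in the first class and the other 5 in the second. Within its class, TFRC had 4.74% of genes at or below its fold change, STEAP3 25.1% and SLC11A2 32.8%. FTH1 had 0.883% of its class at or above it and FTL 0.492%. These shares describe where each gene lies, and the part of the class in each gene's value was not tested.

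**Figure D3:**
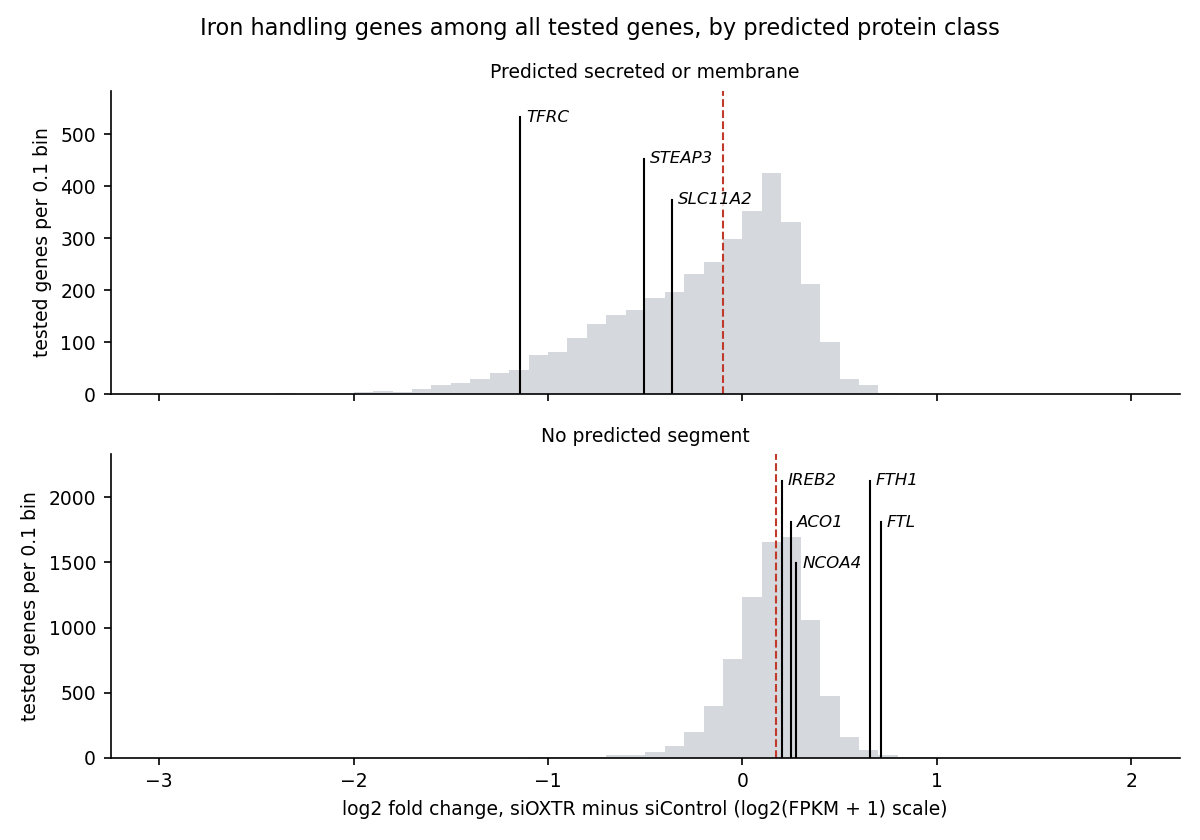
Number of tested genes per 0.1 bin of log2 fold change, siOXTR minus siControl, for 3541 genes with a predicted secreted or membrane protein (top) and 7928 with no predicted segment (bottom); vertical black lines mark the iron handling genes and red dashed lines the class medians of -0.10 and 0.17. TFRC lies in the lower tail of its class, SLC11A2 and STEAP3 within its body, and FTH1 and FTL at the upper edge of theirs.

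Other genes of iron and haem metabolism were grouped in 11 lists, which held 107 tested genes outside the iron handling set. They were named from general knowledge of the pathways, with earlier results of these libraries known, and are described by counts and medians beside the 42.2% higher, the 17.6% lower and the median of 0.13 over all tested genes. All adjusted p-values are from the limma fit over all tested genes, and n = 3 libraries each.

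For iron uptake and reduction, 7 of 9 tested genes fell, none rose, and the median log2 fold change was -0.53. MELTF, a membrane-anchored transferrin homologue, averaged 4.26 ± 0.207 FPKM in siOXTR cells and 8.82 ± 0.312 FPKM in siControl cells (log2 fold change -0.90, adjusted p = 2.06e-07). SLC39A14 (ZIP14), a transporter of iron not bound to transferrin, averaged 10.2 ± 0.161 FPKM in siOXTR cells and 18.4 ± 1.42 FPKM in siControl cells (log2 fold change -0.78, adjusted p = 8e-07). LRP1, an endocytic receptor that takes up haem bound to haemopexin, averaged 0.617 ± 0.0551 FPKM in siOXTR cells and 2.23 ± 0.220 FPKM in siControl cells (log2 fold change -0.995, adjusted p = 1.06e-06), so it passed the filter only through the siControl libraries. The STEAP family genes STEAP1, STEAP2 and STEAP4 and HFE, whose product binds the transferrin receptor, also fell. LCN2, whose product carries siderophores, and B2M, the partner of HFE, did not pass, and B2M passed as lower with TMM scaling. All 9 belong to the class with a predicted segment, in which 43.8% of genes were lower.

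Genes for the trafficking of the transferrin receptor and for the release and loading of ferritin included both rises and falls. Of 8 trafficking genes 4 rose and 1 fell, with a median of 0.14, and only EXOC2 stayed called higher with TMM scaling. EXOC2, a subunit of the exocyst, averaged 14.3 ± 0.605 FPKM in siOXTR cells and 10.9 ± 0.326 FPKM in siControl cells (adjusted p = 2.57e-04). EHD1, which acts in receptor recycling, averaged 28.1 ± 0.975 FPKM in siOXTR cells and 32.7 ± 2.30 FPKM in siControl cells (adjusted p = 9.68e-03). SNX3, which sorts the internalised receptor, was 0.20 higher on the log2 scale in siOXTR cells (adjusted p = 0.015), a call lost with TMM scaling. Of 9 genes of ferritinophagy and ferritin loading, 3 rose and 2 fell, and none of the rises was called with TMM scaling. The smaller fall, that of TAX1BP1 (adjusted p = 0.0379), was no longer called when any library other than siControl replicate 1 was left out. The largest change was that of ATG9A, the membrane scaffold of early autophagosomes, at 12.6 ± 0.465 FPKM in siOXTR cells and 22.5 ± 3.20 FPKM in siControl cells (log2 fold change -0.79, adjusted p = 1.07e-05). PCBP1, a chaperone that loads iron into ferritin, and GABARAPL2, an autophagosome protein, rose by 0.25 (adjusted p = 6.73e-03) and 0.20 (adjusted p = 5.60e-03) on the log2 scale, and neither was called with TMM scaling.

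Of 5 tested genes of iron sensing and export, 2 rose and 2 fell, and CUL1 was no longer called higher with TMM scaling. FBXL5, the iron-sensing subunit of the ligase that degrades iron regulatory protein 2, averaged 31.4 ± 0.390 FPKM in siOXTR cells and 23.5 ± 0.530 FPKM in siControl cells (log2 fold change 0.41, adjusted p = 3.74e-05). NEO1, a co-receptor of the hepcidin pathway in liver, averaged 3.15 ± 0.285 FPKM in siOXTR cells and 9.72 ± 0.710 FPKM in siControl cells (log2 fold change -1.37, adjusted p = 2.12e-08). FURIN, a proprotein convertase, averaged 11.4 ± 0.975 FPKM in siOXTR cells and 21.9 ± 2.28 FPKM in siControl cells (log2 fold change -0.88, adjusted p = 2.27e-06). The other 7 genes of this list, HAMP, HJV, HEPH, CP, BMP6, TMPRSS6 and ERFE, did not reach the mean of 1 FPKM needed for testing. Among other tested mRNAs known to carry an iron responsive element, CDC42BPA rose (log2 fold change 0.26, adjusted p = 0.01), a call lost with TMM scaling, and EPAS1 and CDC14A did not pass.

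Iron imported into the mitochondrion goes mainly into iron-sulphur clusters and haem. Of 20 tested genes of mitochondrial iron import and iron-sulphur cluster assembly, 13 rose and 1 fell, with a median of 0.27, and 11 were called higher with TMM scaling. ISCA1, a late-acting assembly factor, averaged 23.2 ± 0.845 FPKM in siOXTR cells and 15.9 ± 1.05 FPKM in siControl cells (adjusted p = 2.23e-05). The electron donor FDX2 rose by 0.45 (adjusted p = 2.93e-03) and the cysteine desulphurase NFS1 by 0.40 (adjusted p = 9.53e-05) on the log2 scale. Of 11 cytosolic assembly genes 8 rose and none fell, with a median of 0.19, and 3 were called higher with TMM scaling. Among these, NUBP1 rose by 0.45 (adjusted p = 2.04e-04), CIAO2B by 0.37 (adjusted p = 1.28e-03) and BOLA2, whose call was lost with TMM scaling, by 0.38 (adjusted p = 0.016). BOLA2 has a near-identical copy, and its value is uncertain. Only 3 of the 20 mitochondrial and 1 of the 11 cytosolic genes have a predicted segment. Of all tested genes with no predicted segment, 50.9% were higher and 6.05% lower, with a median of 0.17. The cytosolic list thus lay near its class. The part of the class in these rises was not tested.

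In haem synthesis 7 of 9 genes rose and none fell, with a median log2 fold change of 0.37. With TMM scaling 5 were called higher, and ALAD and UROS were not. FECH, which inserts iron into the porphyrin ring and carries an iron-sulphur cluster, averaged 4.56 ± 0.271 FPKM in siOXTR cells and 2.49 ± 0.0436 FPKM in siControl cells (log2 fold change 0.67, adjusted p = 6.55e-06). UROD averaged 28.2 ± 1.31 FPKM in siOXTR cells and 19.1 ± 0.747 FPKM in siControl cells (log2 fold change 0.54, adjusted p = 8.58e-06). ALAS1, the first enzyme of the pathway outside red cells, averaged 71.6 ± 1.26 FPKM in siOXTR cells and 51.1 ± 0.653 FPKM in siControl cells (log2 fold change 0.48, adjusted p = 5.41e-06). Of 9 genes of haem breakdown and transport 2 rose and 4 fell. HMOX1, the inducible haem oxygenase that frees iron from haem, was at 40.43, 43.87 and 39.40 FPKM in siOXTR libraries, against 13.72, 14.17 and 14.46 FPKM in siControl libraries. The groups were far apart, 2.92-fold, with a log2 fold change of 1.48 (SE 0.058, adjusted p = 1.23e-09). The haem-binding membrane proteins PGRMC1 and PGRMC2 fell by 0.68 (adjusted p = 2.94e-07) and by 0.62 (adjusted p = 5.25e-06) on the log2 scale.

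Most of the listed antioxidant genes regulated by NRF2 were higher in siOXTR cells. Of 16 tested NRF2 target genes 15 rose and none fell, with a median log2 fold change of 0.51, and with TMM scaling 13 were called higher and ABCC3 lower. NFE2L2 itself was at 61.63, 63.59 and 61.01 FPKM in siOXTR libraries, against 46.74, 46.51 and 49.68 FPKM in siControl libraries (log2 fold change 0.38, SE 0.051, adjusted p = 7.42e-05). OSGIN1 averaged 8.21 ± 0.246 FPKM in siOXTR cells and 3.94 ± 0.339 FPKM in siControl cells (log2 fold change 0.90, adjusted p = 4.58e-07). The autophagy receptor gene SQSTM1 averaged 303 ± 4.33 FPKM in siOXTR cells and 187 ± 16.04 FPKM in siControl cells (log2 fold change 0.69, adjusted p = 2.44e-06). Of 11 genes of ferroptosis control, the iron-dependent form of cell death, 7 rose and 2 fell. With TMM scaling 5 were called higher, and AIFM2 and SLC7A11 were not. The largest rises were those of GCLC and GCLM, the subunits of the enzyme that starts glutathione synthesis and also on the NRF2 list, by 0.66 (adjusted p = 7.09e-07) and 0.57 (adjusted p = 2.09e-05) on the log2 scale. LPCAT3, which builds polyunsaturated phospholipids, fell by 0.81 (adjusted p = 7.44e-07), and ACSL4, which activates the fatty acids for them, fell too.

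**Figure D4:**
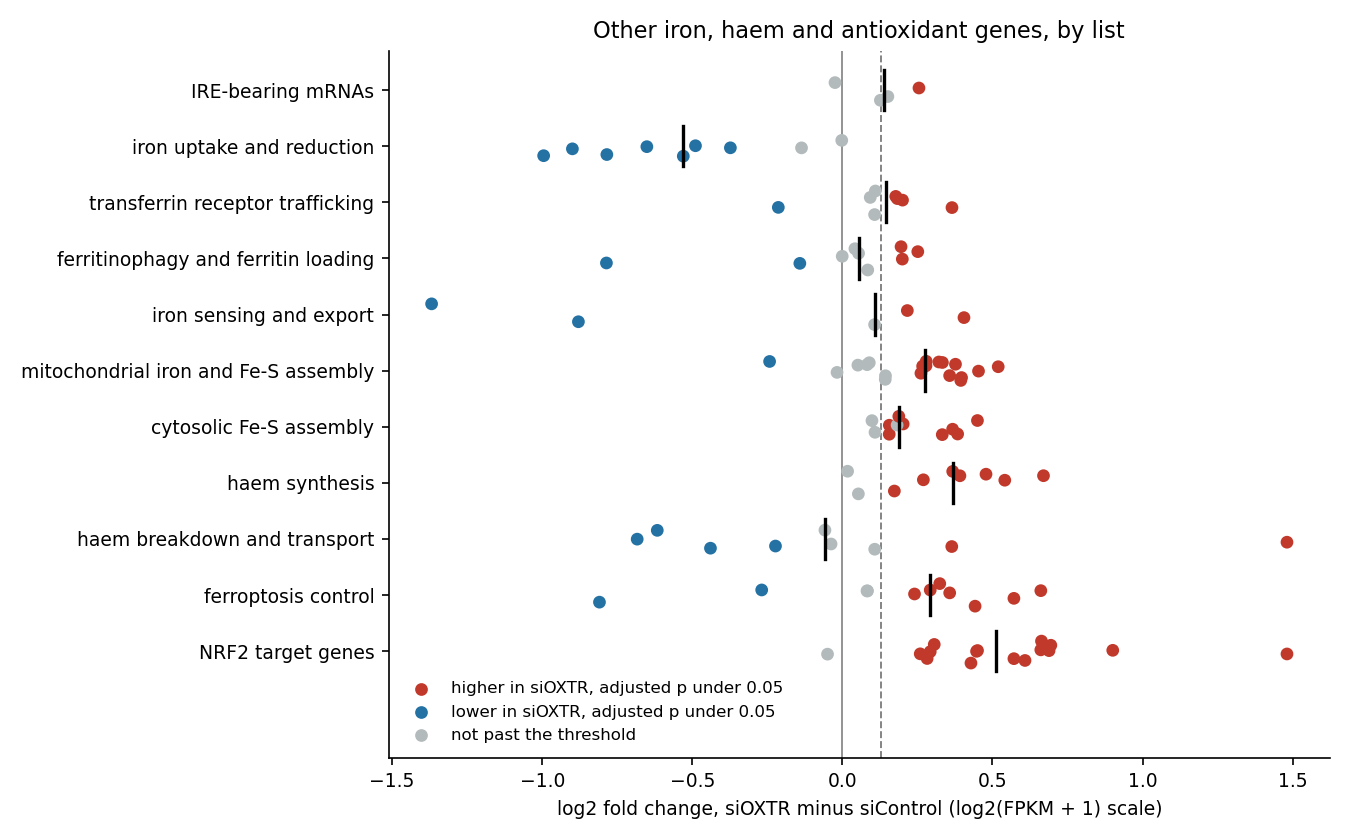
Log2 fold change, siOXTR minus siControl on the log2(FPKM + 1) scale, of the tested genes of 11 iron, haem and antioxidant lists, without the iron handling genes; red points rose and blue points fell past an adjusted p of 0.05 (limma), grey points did not pass, and black bars are list medians. The solid line is 0 and the dashed line the median of all tested genes at 0.13; NRF2 target genes have a median of 0.51 and iron uptake genes of -0.53.

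Promoter windows from 250 bases before to 50 after the transcription start (RefSeq, GRCh38.p14) were given for 7 of the 8 genes, all but FTH1. ACGTG on either strand, the core bound by hypoxia-inducible factors, was found in TFRC and FTL, and in 21.4% of all promoters. TGACNNNGC on either strand, the core of the antioxidant response element bound by NRF2, was found only in NCOA4 among the 7, and in 13.3% of all promoters. The shares count start windows, of which a gene can have several. In NCOA4 the match lay in the window of an internal start, chr10:46019950-46020249, downstream of that start. The NCOA4 window at the 5′ end of the gene had no match. All of these are matches of letters and say nothing of binding.

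The nearest profiles over the 6 libraries, by Euclidean distance of log2(FPKM + 1) after subtraction of the siControl mean, were those of MB (0.125), SQSTM1 (0.137) and H1-2 (0.153) for FTH1. For FTL they were those of H2BC5 (0.079), MKNK2 (0.0948) and NQO1 (0.107), and for TFRC those of ITM2B (0.0837), ERLIN1 (0.107) and SDC1 (0.108). With 6 libraries in 2 groups this distance mostly reads the size of the group difference.

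Markers of the line and of other iron-rich cells were checked beside these values. The 5 epithelial markers (EPCAM, KRT8, KRT18, KRT19 and CDH1) summed to between 7707 and 7866.6 FPKM in siOXTR libraries and between 6570.5 and 7622.4 FPKM in siControl libraries. Most of this sum is keratin mRNA. Past the threshold 1 of the 5 rose, and EPCAM and CDH1 fell. EPCAM was at 136.34 to 149.83 FPKM in siOXTR libraries, against 280.41 to 310.91 FPKM in siControl libraries. CDH1 was at 19.80 to 20.27 FPKM in siOXTR libraries, against 73.32 to 79.70 FPKM in siControl libraries. The 3 erythroid markers listed summed to at most 0.48 FPKM in siOXTR libraries and 0.37 FPKM in siControl libraries. Leukocyte and macrophage markers (6) summed to at most 3.0 FPKM in siOXTR libraries and 1.95 FPKM in siControl libraries, and 5 fibroblast markers to at most 0.81 FPKM in siOXTR libraries and 2.02 FPKM in siControl libraries. CD163, a haemoglobin scavenger receptor of macrophages, was listed at 0 in 5 of the 6 libraries, and the highest single value of any of these markers was 1.67 FPKM, of PTPRC. None of these markers of other cell types reached the level needed for testing.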

How the data were processed

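RNA of 6 libraries (3 siOXTR, 3 siControl) was analysed. The authors deposited FPKM per the file headers, for the same 17318 genes in each library. Per the submitters' processing notes the genome was GRCh38.p13, and per the labels' protocols the libraries were of the BGISEQ-500 type. Aligner, quantifier and annotation were not given in the sources used here. FPKM is relative to a library total, so a change in abundant genes moves the others. Low values held no steps of whole fragments (coherence 0.156 to 0.195 of a possible 1), so depth is unknown and no count model was used.

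The genes and lists were chosen with earlier results of these data known. The 11550 genes that averaged 1 FPKM or more were tested on the log2(FPKM + 1) scale. The two-sided test was that of limma 3.58.1 (R 4.3.3), which had group as its only term, a robust prior and a trend in the mean, with Benjamini-Hochberg adjustment over all tested genes and a threshold of 0.05. The procedure was tested on simulated data with 200 changed genes, as many up as down, and no difference of scale between libraries. In the data 59.8% of tested genes were called, so the simulation does not check the calls in such a setting. Values after ± are SDs. Named beside the iron handling genes are OXTR, HMOX1, NFE2L2, up to 3 genes per list with the largest change past the threshold, and the 3 nearest profiles of FTH1, FTL and TFRC; BEST1 and the other genes were named after their values were seen. The protein class was predicted from Kyte-Doolittle hydropathy, by a 9-residue window of at least 2.2 in the first 35 residues or any 19-residue window of at least 1.7, and makes errors both ways. Alternatives were pseudocounts of 0.1 and 0.5, no filter, TMM factors computed in own code on FPKM, quantile normalization, plain eBayes, a replicate block and each library left out.

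Libraries of one group shared identical values in at most 0.606% of tested genes, so each counted as 1 replicate. Some results are not reported here.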

Additional observations from a re-analysis of the deposited data

How the results depend on the processing

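Direction held for all 8 iron handling genes under each alternative except quantile normalization, where FTH1 came to 0 because the top gene of every library is given the same value. With TMM scaling IREB2 (0.082) and ACO1 (0.13) lost their call. TMM scaling called 2228 of all tested genes higher and 2832 lower, where the values as deposited gave 4869 higher and 2036 lower. Among the lists, genes called higher numbered 0 of the mRNAs with an iron responsive element, 1 of receptor trafficking, 0 of ferritinophagy and loading, 1 of sensing and export and 3 of cytosolic assembly with TMM, where 1 NRF2 target gene was lower; with quantile normalization they numbered 1 of trafficking, 1 of ferritinophagy and loading and 4 of cytosolic assembly. Without a filter, 1 gene of ferritinophagy and loading and 4 of sensing and export were lower, and with plain eBayes 1 of ferritinophagy and loading was. The cause of these moves was not tested. With each library left out in turn, log2 fold changes ran from 0.56 to 0.70 for FTH1, 0.69 to 0.76 for FTL and -1.17 to -1.13 for TFRC. They ran from -0.39 to -0.33 for SLC11A2 and -0.54 to -0.48 for STEAP3. For IREB2 they ran from 0.17 to 0.24, for ACO1 from 0.22 to 0.29 and for NCOA4 from 0.25 to 0.32. All 8 stayed called, IREB2 only narrowly without siOXTR replicate 1. In the same fits 3976 to 4671 of all tested genes were called higher and 1819 to 2020 lower. Lists that moved by over 1.5 times were those with the element (1 to 2 higher, 2 without siControl replicate 2), trafficking (2 to 4 higher, 2 without siOXTR replicate 2), cytosolic assembly (5 to 9 higher, 5 without siControl replicate 1) and ferritinophagy and loading (1 to 2 lower), where TAX1BP1 lost its call without any one library other than siControl replicate 1. Same-numbered libraries deviated together only weakly (r = 0.1073, 0.0042 and 0.1602), and libraries of unlike number had r from -0.3099 to 0.2081. With 3 libraries per group these values cannot decide whether the numbers pair the libraries. With the replicate block 5100 genes were higher and 2105 lower, TFRC was at -1.14 and FTH1 at 0.65, and all 8 calls stood. Depth is unknown, so low genes such as STEAP3 and LRP1 carry a counting error that cannot be given.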
